A study of Homo sapiens with 2 samples.

Results

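Gene deserts, the long stretches of the genome without protein-coding genes, held 30242 of the 281111 ChIP-seq summits that 2 peak lists place on chromosomes 1 to 22 and X. A summit, the position of highest read pileup in a peak, was taken as a desert summit when it lay outside every RefSeq protein-coding gene span and more than 200 kb from the nearest end of one. The TCF19 overexpression library contributed 10635 of its 111569 summits and the control library 19607 of its 169542 summits. The stretches that meet the rule form 867 deserts that cover 720.9 Mb, or 23.79% of the 3030.1 Mb spanned by the 23 chromosomes. Stretches in which reads cannot be placed were not taken out of these lengths. Each desert is named here by the coding genes on its low and high side.

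Both libraries are chromatin immunoprecipitations with an antibody against TCF19 (Santa Cruz sc-101169) from Ishikawa cells, an endometrial cancer line grown in DMEM with fetal bovine serum. One culture had received a lentivirus that overexpresses TCF19 and the other a control lentivirus, and both were selected with puromycin. Neither the promoter of the transgene nor the level of TCF19 in either culture is stated in the labels. There is 1 library per condition, so no difference has a replicate check and no p-value is given; every interval below is a 95% interval that covers counting error only.

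TCF19 is a nuclear protein with a forkhead-associated domain and a PHD finger, a fold known to read methylated histone H3 tails, and it is best known from studies of cell proliferation and of pancreatic beta cells. Gene deserts are poor in G and C and in coding sequence, but they are not empty: they hold enhancers of distant developmental genes, long noncoding RNA (lncRNA) genes, small RNA genes and many pseudogenes. The deserts that span centromeres are made largely of satellite repeats, at which the placement of a short read is ambiguous.

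The promoter windows below are examples of desert lncRNA starts with and without a summit. Each window runs from 250 bases before to 50 bases after the start of the gene in RefSeq (GRCh38.p14), is written 5′ to 3′ on the strand of the gene, and has its CpG dinucleotides in capitals. LOC105379807 (chr9:61862566-61862865, minus strand) held a summit in both libraries. LINC02872 (chr9:87148394-87148693, plus strand) and LOC105370998 (chr15:96053327-96053626, minus strand) held one in the overexpression library alone. LINC02706 (chr11:134712176-134712475, plus strand) and LOC105377181 (chr3:83404288-83404587, minus strand) held one in the control library alone. FAM88E (chr9:42569300-42569599, minus strand) held none and has the median G + C of such windows.
LOC105379807: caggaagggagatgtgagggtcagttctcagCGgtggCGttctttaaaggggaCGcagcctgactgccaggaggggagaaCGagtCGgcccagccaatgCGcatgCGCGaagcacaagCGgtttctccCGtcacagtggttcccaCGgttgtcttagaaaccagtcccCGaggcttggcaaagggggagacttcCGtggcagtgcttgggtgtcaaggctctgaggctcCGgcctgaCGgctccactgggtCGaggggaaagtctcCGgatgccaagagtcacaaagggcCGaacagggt
LINC02872: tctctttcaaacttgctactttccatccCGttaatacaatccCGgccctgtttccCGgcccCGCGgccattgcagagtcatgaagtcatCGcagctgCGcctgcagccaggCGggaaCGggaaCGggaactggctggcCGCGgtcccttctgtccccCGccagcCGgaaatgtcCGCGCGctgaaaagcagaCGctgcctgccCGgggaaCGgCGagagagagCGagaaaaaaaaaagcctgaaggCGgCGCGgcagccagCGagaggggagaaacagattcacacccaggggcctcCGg
LOC105370998: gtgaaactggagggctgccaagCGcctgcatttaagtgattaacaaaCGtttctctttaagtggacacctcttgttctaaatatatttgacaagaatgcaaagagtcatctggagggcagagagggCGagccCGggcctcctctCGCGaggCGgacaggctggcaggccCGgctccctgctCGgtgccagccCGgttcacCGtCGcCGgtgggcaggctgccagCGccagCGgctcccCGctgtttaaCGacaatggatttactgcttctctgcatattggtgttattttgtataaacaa
LINC02706: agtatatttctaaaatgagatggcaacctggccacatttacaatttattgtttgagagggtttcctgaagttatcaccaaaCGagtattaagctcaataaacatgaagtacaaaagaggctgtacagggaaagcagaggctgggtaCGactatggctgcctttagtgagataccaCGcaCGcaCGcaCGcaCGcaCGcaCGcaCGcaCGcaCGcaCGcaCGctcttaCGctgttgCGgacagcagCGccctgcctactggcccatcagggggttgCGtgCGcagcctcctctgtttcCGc
LOC105377181: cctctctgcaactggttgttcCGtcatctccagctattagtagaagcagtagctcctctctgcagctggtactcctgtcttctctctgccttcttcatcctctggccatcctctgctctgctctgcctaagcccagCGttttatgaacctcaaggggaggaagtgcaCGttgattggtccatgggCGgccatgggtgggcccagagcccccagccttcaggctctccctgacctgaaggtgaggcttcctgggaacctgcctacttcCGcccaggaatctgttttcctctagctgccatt
FAM88E: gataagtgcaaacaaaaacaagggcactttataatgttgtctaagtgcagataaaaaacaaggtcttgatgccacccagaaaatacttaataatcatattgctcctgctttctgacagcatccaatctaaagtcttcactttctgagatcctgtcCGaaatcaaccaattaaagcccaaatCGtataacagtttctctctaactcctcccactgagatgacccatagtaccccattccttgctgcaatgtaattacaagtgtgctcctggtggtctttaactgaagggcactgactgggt

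The windows with a summit in both libraries or in the overexpression library alone carried 18, 27 and 17 CpG sites in the order printed. Those of LINC02706 and LOC105377181 carried 20 and 5, and the window of FAM88E carried 2. The window of LINC02706 holds a run of CGCA repeats. Single windows vary: over all such windows the median ratio of observed to expected CpG was 0.66 with a summit in both libraries, 0.77 with the overexpression summit alone, 0.67 with the control summit alone and 0.18 with neither. Among windows of highest fold that are not printed, LOC100287704 and LOC105379252, with a summit in both libraries, had ratios of 0.49 and 0.07. LINC01550, with the overexpression summit alone, had 0.54, and LOC105376567, with the control summit alone, had 0.0.

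Desert microRNA genes with a summit within 1000 bp were few, and the mature RNAs of 4 of them are given with the seed, bases 2 to 8, in capitals. They are shown because they include the only desert microRNA gene with a summit in the overexpression library alone, miR-148a, beside 3 with a summit in both libraries outside the ribosomal RNA repeats and centromere deserts. No 2 of the seeds printed are alike.
hsa-miR-148a-3p: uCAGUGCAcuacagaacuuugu
hsa-miR-1202: gUGCCAGCugcagugggggag
hsa-miR-4444: cUCGAGUUggaagaggcg
hsa-miR-622: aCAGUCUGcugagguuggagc

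Deserts held a smaller share of the overexpression summits than of the control summits. The share was 9.53% in the overexpression library (9.36 to 9.71) and 11.56% in the control library (11.41 to 11.72), a ratio of 0.82 (0.81 to 0.84). In counts, the overexpression list had 0.542 summits for each control summit in deserts and 0.673 in the rest of the genome. The desert ratio was the lower of the pair on all 23 chromosomes: it ranged between 0.407 on chromosome X and 0.722 on chromosome 22. Desert DNA was also thinly occupied in both lists, with 14.75 summits per Mb in the overexpression library against 43.71 elsewhere, and 27.2 per Mb in the control library against 64.93 elsewhere. Without the deserts that span a centromere the desert densities were 18.36 per Mb in the overexpression and 34.75 in the control library. At the boundary of the rule, the 10 kb just inside it, from 200 to 210 kb, held 404 overexpression and 731 control summits, and the 10 kb just outside held 471 overexpression and 816 control summits.

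With distance from coding genes the ratio of the shares fell and then came back toward 1. Outside gene spans and within 1 kb of a coding gene end the share in the overexpression list was 1.82 times (1.74 to 1.90) that in the control list. At 50 to 200 kb the ratio was 0.847 (0.83 to 0.864), and it was lowest just inside the deserts, at 0.779 (0.746 to 0.814) between 200 and 300 kb. Deeper in the deserts it was 0.806 between 300 and 500 kb, 0.855 between 500 and 1000 kb and 0.916 (0.854 to 0.981) beyond 1000 kb. The count ratio of overexpression to control, which is on another scale than the ratio of shares, was 0.513, 0.531, 0.562 and 0.602 over those 4 distances. Without the deserts that span a centromere it was 0.505, 0.524, 0.547 and 0.56. The order was thus the same without them, but the rise was smaller.

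**Figure D1:**
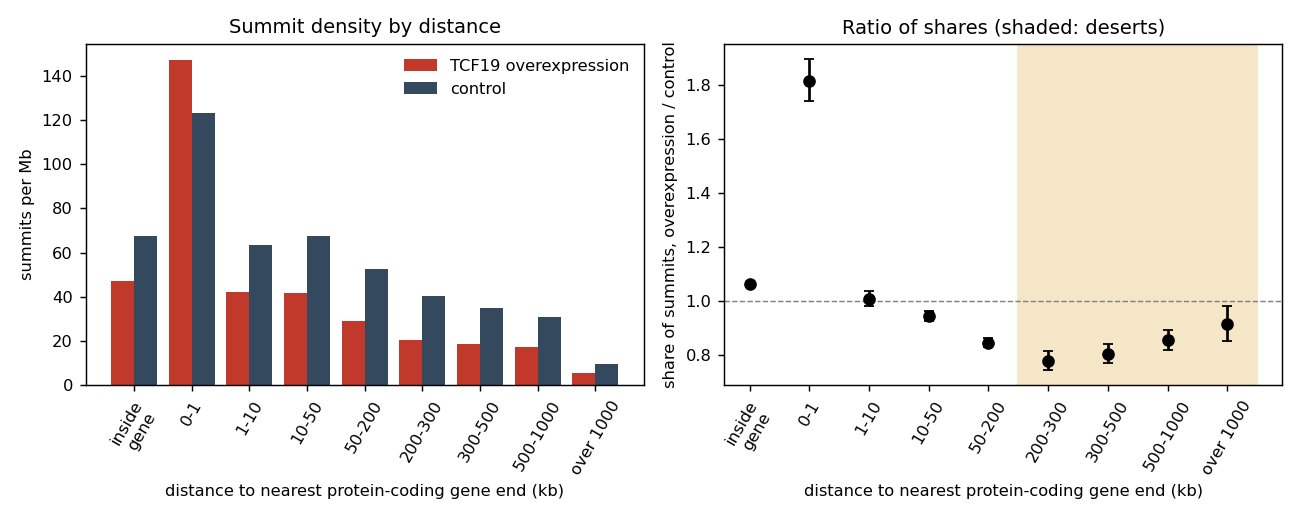
Left, summits per Mb in the TCF19 overexpression and control libraries by distance to the nearest protein-coding gene end. Right, the share of summits in each distance class in the overexpression list over that in the control list, with 95% counting intervals; the ratio is 1.82 outside genes within 1 kb of a coding end and 0.779 at 200 to 300 kb.

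Desert summits were small peaks on a low background. The median pileup, recovered in whole reads, was 11 in both libraries in deserts, against 14 in the overexpression and 12 in the control library elsewhere. The authors' fold enrichment had a desert median of 4.36 in the overexpression library and 4.23 in the control library, with medians of 4.0 in the overexpression and 3.87 in the control library elsewhere. The local background stood at the genome average under 48.47% of overexpression and 66.34% of control desert summits. Outside deserts those shares were 18.25% of overexpression and 34.45% of control summits. The genome average itself was 1.43 reads at a point in the overexpression library and 1.58 in the control library, a ratio of 0.903.

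The 23 deserts that hold a centromere made up 189.9 Mb of the desert length. They held 887 overexpression summits (8.34% of its desert summits) and 1156 control summits (5.9%). They were sparse in summits, at 4.67 per Mb in the overexpression library and 6.09 in the control library, and held the tallest desert peaks. These densities are over the whole length, including any part in which reads cannot be placed. The 95th percentile of pileup there was 98 reads in the overexpression and 52 in the control library, against 20 in the overexpression and 18 in the control library in the other deserts.

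Most desert intervals of the overexpression list were also in the control list, while most control intervals were not in the overexpression list. Of 10005 overexpression desert intervals, 7797 shared 1 bp or more with a control interval, or 77.93% (77.11 to 78.73), where the whole list had 67.4%. Of 18560 control desert intervals, 7793 overlapped an overexpression interval, or 41.99% (41.28 to 42.7), where the whole list had 43.0%. Outside deserts the overexpression share was 66.21% and the control share 43.15%. The overexpression intervals in deserts thus stood above the rest of their list in overlap with the control list as deposited. With the control list cut to the length of the overexpression list their share was 66.13%, and no like value was computed outside deserts. The control intervals in deserts stood slightly below the rest of their list, but with deserts taken from 500 kb their share was 44.33% (43.2 to 45.46), above that of the whole list.

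The excess overlap of the overexpression desert intervals lay at low fold. Below a fold of 3, 59.56% of the desert intervals (55.53 to 63.46) and 36.64% of the others overlapped a control interval. Between 5 and 6 the shares were 86.31% and 85.76%, whose intervals overlap. For control intervals below a fold of 3 the order was the other way round, with 31.05% (28.57 to 33.63) in deserts and 38.93% elsewhere. Among the 1000 desert intervals of highest fold, 92.9% of the overexpression intervals and 82.3% of the control intervals were in the other list. High overlap at high fold was not particular to deserts. Between 6 and 7, 90.58% of desert and 89.73% of other overexpression intervals overlapped the other list. For control intervals the shares there were 72.85% in deserts and 72.27% elsewhere. With the control desert intervals limited to the 10005 of highest fold, 52.37% overlapped an overexpression interval.

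Many of the intervals in 1 list alone were small. An interval was counted as large enough when its pileup, scaled by the ratio of the genome averages, would have passed the threshold of the other library with a Poisson probability of at least 0.95. This held for 924 of the 2208 desert intervals found in the overexpression list alone (41.85%). It held for 1850 of the 10767 desert intervals found in the control list alone (17.18%). Outside deserts it held for 39.86% of the intervals in the overexpression list alone and 14.15% of those in the control list alone. The contrast between the lists was thus also seen outside deserts, but the calculation does not treat the lists alike. Overexpression pileups were scaled up and set against a lowest −log10 p of 2.82. Control pileups were scaled down and set against 3.01. At a fold of 4 to 5 the desert shares were 60.51% for the overexpression list and 5.35% for the control list, at median pileups of 10 and 11 reads. The contrast therefore does not measure a difference between the libraries.

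**Figure D2:**
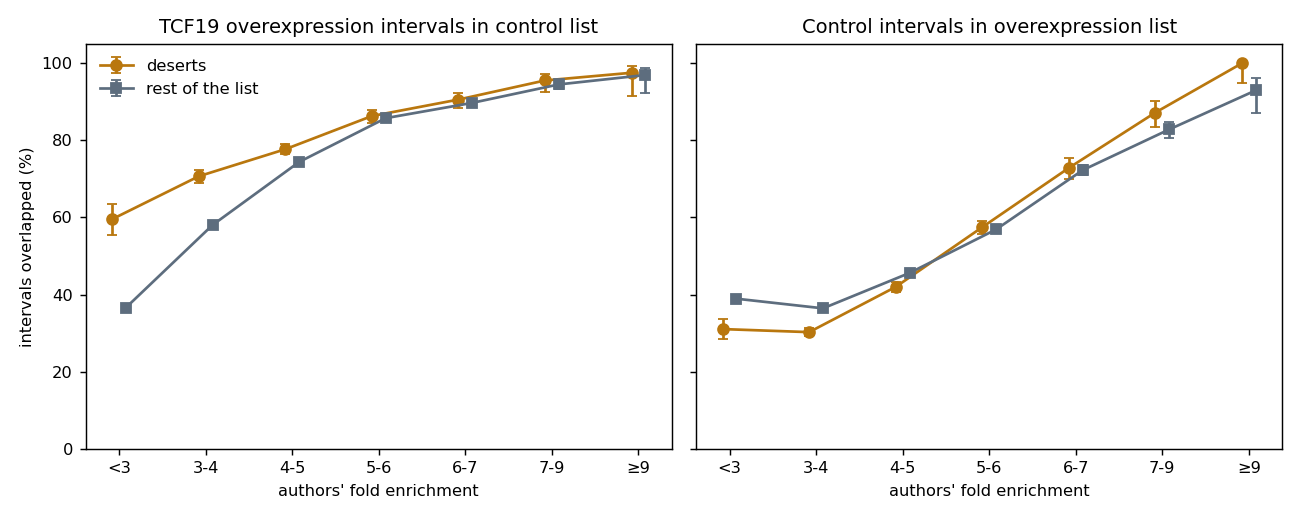
Share of intervals that overlap an interval of the other list, by the authors' fold enrichment, for overexpression intervals (left) and control intervals (right) in deserts and in the rest of each list, with 95% Wilson intervals. Below a fold of 3, 59.56% of desert and 36.64% of other overexpression intervals, and 31.05% of desert and 38.93% of other control intervals, overlap the other list.

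Where both libraries had a desert summit within 100 bp, the pileups were close. Over 4998 such pairs the pileup, each relative to its genome average, had a mean log2 ratio of overexpression to control of 0.09 ± 0.48 (SD over pairs). The 36016 pairs outside deserts had 0.10 ± 0.46. At least 2-fold higher in the overexpression library were 146 desert pairs, or 2.92%, where 2.76% of all pairs were. At least 2-fold lower were 45, or 0.9%, where 0.902% of all pairs were. Both desert counts were near these backgrounds. Pairs in centromere deserts had a mean of 0.24 ± 0.52 (441 pairs), against 0.08 ± 0.47 in the other deserts (4557 pairs).

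The desert intervals of highest fold in both lists lay in centromere deserts and at ribosomal DNA. Of the 10 highest, 9 were in centromere deserts of chromosomes 4, 5, 6 and 17. The highest, chr6:59163013-59163463 in the PRIM2-KHDRBS2 desert, had a fold of 29.25 and a pileup of 155 reads in the overexpression library, and a fold of 26.07 and 87 reads in the control library. The remaining one, chr21:8405394-8405911, lay 3.28 kb from RNA45SN3, a gene of the 45S precursor of ribosomal RNA, with 125 reads in the overexpression and 119 in the control library. These sequences are repeated many times in the genome, and how reads with several possible positions were handled is not stated in the labels.

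Outside the centromere deserts, the intervals of highest fold found in the overexpression list alone had pileups of 16 to 26 reads. The first, chr2:7338109-7338550 between RNF144A and ID2, an inhibitor of helix-loop-helix transcription factors, had 18 reads (10.7 to 28.4) and a fold of 7.82. Others lay inside DANT2, an lncRNA gene near the macrosatellite DXZ4 on chromosome X (26 reads), and inside LINC00333 between SLITRK1 and SLITRK6, which encode synaptic adhesion proteins (18 reads). Among those of the control list alone the first, chr4:32679726-32680207 between PCDH7 and ARAP2, had 21 reads (13 to 32.1) and a fold of 8.43. LINC02955, between ETNK1 and SOX5, a regulator of cartilage and neural development, held another with 20 reads.

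Desert summits favoured the ends of noncoding genes, in the overexpression library more than in the control library. Windows within 1 kb of an end of any noncoding gene take up 2.26% of the desert length. That length includes the centromere deserts and any part in which reads cannot be placed, and the comparison was not made without them. They held 9.35% of the overexpression desert summits (8.81 to 9.91), which is 4.13 times their share of the length. They held 6.68% of the control desert summits (6.34 to 7.04), which is 2.95 times that share. The ratio of the library shares was 1.40 (1.29 to 1.51), and within 1 kb of coding gene ends, inside or outside the gene, it was 1.90 (1.86 to 1.94). The bodies of lncRNA genes, by contrast, held 23.09% of overexpression and 24.52% of control desert summits on 19.03% of the length.

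The ratio was above 1 at the ends of lncRNA genes and at those of pseudogenes. Within 1 kb of lncRNA ends lay 4.46% of overexpression and 3.26% of control desert summits, a ratio of 1.37 (1.22 to 1.54). For pseudogenes, the decayed copies of genes, 4.76% of overexpression and 3.22% of control desert summits lay there, a ratio of 1.48 (1.32 to 1.66). Intervals at noncoding ends were also more often in both lists: 84.58% of those of the overexpression list (82.01 to 86.84) and 60.91% of those of the control list (58.08 to 63.67), where 77.31% of the other overexpression and 40.72% of the other control desert intervals were.

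By gene, the control library still marked more. Of 4842 noncoding genes in deserts, 815 (16.8%) had an overexpression summit within 1000 bp of an end and 1077 (22.2%) had a control summit; 704 had both, 111 the overexpression summit alone and 373 the control summit alone. Of 2409 lncRNA genes, 377 were marked in the overexpression and 512 in the control library, and of 1936 pseudogenes 383 in the overexpression and 482 in the control library. Of 285 immunoglobulin and other immune receptor segments, which encode parts of antigen receptors, 33 were marked in the overexpression and 57 in the control library, with 20 in both.

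The noncoding genes with the highest fold in both libraries were again largely repeats: ribosomal RNA genes of chromosome 21, and pseudogenes such as DUX4L44, a copy of the DUX4 homeobox gene family, which had 203 reads in the overexpression and 193 in the control library. Marked in the overexpression library alone were LOC105370220 on chromosome 13, with 26 reads (17 to 38.1), and LINC02504 on chromosome 4, with 18 reads (10.7 to 28.4). LINC02504 lies in the AADAT-GALNTL6 desert, in a stretch described below where control summits were sparse. Marked in the control library alone were SKP1P2, a pseudogene of the ubiquitin ligase subunit SKP1, with a summit of 19 reads (11.4 to 29.7) inside its span that also lies within 1000 bp of its neighbour EEF1A1P16, and LINC00383, with 16 reads (9.1 to 26). The pseudogene copies share sequence with their parents, so their reads cannot be assigned with certainty.

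Of 122 desert microRNA genes, 10 (8.2%) had an overexpression summit within 1000 bp and 12 (9.84%) a control summit, with 9 in both, where 16.8% and 22.2% of all desert noncoding genes had an overexpression and a control summit. The windows at both ends of a gene this short overlap, so less sequence was searched than at a long gene. The shares are therefore not over like lengths. MIR148A, whose product is known to repress the low-density lipoprotein receptor, had an overexpression summit of 17 reads (9.9 to 27.2) at 957 bp from the gene and no control summit within 1000 bp. MIR1202 had 21 reads in the overexpression and 18 in the control library, and MIR4444-2 had 13 in the overexpression and 16 in the control library. MIR622 had 10 reads at 554 bp from the gene in the overexpression library and 11 reads at 734 bp in the control library. At MIR1202, MIR4444-2 and MIR622 the 2 counts were within counting error of each other. MIR3648-2 and MIR10396A lie in the ribosomal DNA of chromosome 21 and share a summit of 69 reads in the overexpression library (53.7 to 87.3), against 46 in the control library (33.7 to 61.4). MIR3648-1, also in that ribosomal DNA, held a summit of 24 reads (15.4 to 35.7) in the overexpression and 27 (17.8 to 39.3) in the control library.

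Summits at desert lncRNA starts were rare and lay in windows rich in G and C. Promoter windows were available for 1780 of the 2409 desert lncRNA genes, or 73.9%, too few to speak for all of them, so these values describe the 1780 windows alone. An overexpression summit lay in 69 windows (3.88%), where 17.5% of all 34961 RefSeq promoter windows held one. A control summit lay in 62 (3.48%), where 11.1% of all windows did. The median G + C was 62.7% in the 33 windows with a summit in both libraries, 60.3% in the 36 with the overexpression summit alone, 62.3% in the 29 with the control summit alone and 40.7% in the 1682 with neither.

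At high G + C the share of desert windows with an overexpression summit was within counting error of that of other promoters, and the share with a control summit was higher. Among the 114 desert windows with at least 60% G + C, 39.47% held an overexpression summit (30.98 to 48.65) and 36.84% a control summit (28.55 to 45.99). Among the 16295 other promoter windows of that class, 32.66% held an overexpression and 19.01% a control summit. Below 40% G + C, 1 of 764 desert windows held an overexpression summit and 0 a control summit. A count of 0 of 764 allows a share of up to 0.393%, taken as 3 counts of the total, and its Wilson upper limit is 0.5%. Of the 98 windows with a summit in either library, 26 lay in centromere deserts.

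**Figure D3:**
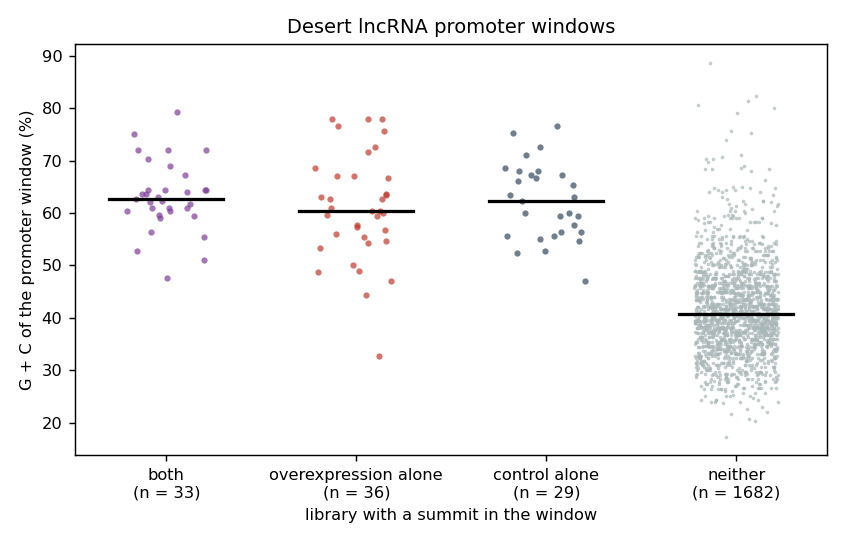
Percentage of G + C of each of the 1780 desert lncRNA promoter windows, by which library has a summit in the window; bars are medians. The 3 classes with a summit have medians of 62.7%, 60.3% and 62.3%, and the windows with neither have 40.7%.

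A set of motifs was searched as exact letters on both strands of the windows. GGGCGG, the GC box, was in 48.0% of the 98 desert windows with a summit, in 5.2% of the 1682 without one and in 45.0% of all promoter windows. TATAAA, the TATA box, was in 4.1% and 29.4% of the same desert windows and in 11.5% of all. CCAAT was in 20.4% and 40.5%, and in 34.6% of all. CACGTG, the E box, was in 4.1% and 2.3%, and in 7.3% of all, and TGACGTCA, the cyclic AMP response element, in 1.0% and 0.4%, and in 1.9% of all. Matches of different motifs could overlap and were counted separately. The windows with a summit are richer in G and C, whose part in the motif counts was not tested, and a match is not a bound site.

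In the windows printed above, the summit of LOC105379807 lay 127 bases before the start with 17 reads (9.9 to 27.2) in the overexpression library, and 143 bases before it with 19 reads (11.4 to 29.7) in the control library. LINC02872 had 20 reads (12.2 to 30.9) in the overexpression library, at 58 bases before the start, and LOC105370998 had 17 at 47 bases before it. LINC02706 had 20 reads (12.2 to 30.9) in the control library, at 32 bases after the start, and LOC105377181 had 15 at 45 bases after it.

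Of 36 listed noncoding genes known from cancer studies, 34 are in the gene table and 18 of these overlap a desert. Desert summits lay within the span of 12 of the 18 in the overexpression and of 15 in the control library. Of all 2850 lncRNA genes that overlap a desert, 37.8% held an overexpression and 50.8% a control desert summit. The listed genes are longer, with a median of 317.6 kb against 20.9 kb over all. Of the 260 lncRNA genes of at least 200 kb, 88.1% held an overexpression and 97.3% a control summit, as did all 11 listed genes of that length in both libraries. MIR99AHG, the host gene of miR-99a and let-7c, held 13 in the overexpression and 24 in the control library. PVT1, a neighbour of the MYC oncogene, held 11 overexpression and 17 control summits, and CASC15, a neuroblastoma susceptibility locus, 8 overexpression and 16 control summits. These counts lie near the balance of 0.542 overexpression summits per control summit over all deserts. SOX2-OT, which spans the stem cell gene SOX2, held 2 overexpression and 13 control summits, and DLEU1, in a segment often deleted in leukaemia, 2 overexpression and 12 control summits. LINC00504 held more in the overexpression library, 5 against 4 in the control library, and LINC01194 held 3 at its ends in each library.

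The number of summits per desert ran closely together in the libraries. Of the 867 deserts, 777 held summits of both, 48 of the control library alone, 1 of the overexpression library alone and 41 of neither. The control library had more in 757 deserts and the overexpression library in 28. Over the 342 deserts of at least 500 kb without a centromere, the densities had a Spearman rho of 0.73, a description over neighbouring regions that share each library's depth and the base composition of the DNA. The density per desert in these 342 had a median of 16.64 per Mb in the overexpression library and 31.7 in the control library.

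The deserts richest in summits included both very long and very dense ones. PCDH7-ARAP2 (chr4:31346801-35805403), beside a protocadherin gene, held 98 overexpression and 160 control summits over 4.46 Mb. GALR1-SALL3 (chr18:77477901-78779817), between a galanin receptor gene and a gene of a developmental zinc-finger factor, held 96 overexpression and 140 control summits over 1.30 Mb, which is 73.74 per Mb in the overexpression and 107.53 in the control library. Both densities are several times those of PCDH7-ARAP2. TBC1D22A-TAFA5 on chromosome 22 held 74 overexpression and 80 control summits over 0.91 Mb, or 80.98 per Mb in the overexpression and 87.54 in the control library. ZNF337-LOC124904970, across the centromere of chromosome 20, held 109 overexpression and 145 control summits. The longest desert, LINC02798-H3-7 across the centromere of chromosome 1, held 60 overexpression and 63 control summits over 22.04 Mb.

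Among the 207 deserts with at least 50 summits in both lists together, the overexpression library supplied a median of 35.9% of them, with a range of 19.6% to 60.6%. Over all deserts it supplied 35.2%. The counting interval lay wholly above that value in 14 deserts and wholly below it in 5. At the low end, SH3BGRL-POU3F4 on chromosome X held 10 overexpression and 41 control summits, and LZTS1-GFRA2 on chromosome 8 held 11 overexpression and 44 control summits. POU3F4 is a neural POU factor and GFRA2 a neurturin receptor. LCORL-SLIT2, beside an axon guidance gene, held 13 overexpression and 46 control summits. At the high end, apart from the long arm of chromosome 4 described next, POTEA-LOC105375816 at the centromere of chromosome 8 held 28 overexpression and 22 control summits, and FOXL1-C16orf95 on chromosome 16 held 34 overexpression and 33 control summits.

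Deserts beside developmental regulators and beside neuronal adhesion genes did not stand far from the others in the balance of the libraries. The 844 deserts without a centromere had 18.36 overexpression and 34.75 control summits per Mb, a ratio of 0.528. The 41 of them beside a listed developmental transcription factor or signalling gene had 23.02 overexpression and 42.39 control summits per Mb, a ratio of 0.543. The 62 beside a listed neuronal adhesion gene, such as the cadherins, protocadherins and SLITRK genes, had 17.25 overexpression and 31.14 control summits per Mb, a ratio of 0.554. As medians over deserts the developmental set had 17.08 overexpression and 36.79 control summits per Mb, against 16.64 overexpression and 33.82 control summits per Mb over all 844.

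The distal long arm of chromosome 4 departed from the balance of the libraries. This stretch was singled out after its values were seen. It was not the only departure: 17 of the 776 deserts without a centromere on other chromosomes also had more overexpression than control summits. In the 8 deserts from SPOCK3-ANXA10 to the end of the arm, the overexpression library had 121 summits and the control library 82, so that it supplied 59.6% (52.7 to 66.1). In the other 60 deserts of chromosome 4 without the centromere it had 803 summits against 1453 in the control library, or 35.6% (33.6 to 37.6). The overexpression library had more summits in 6 of the 8 and in 1 of the 60. AGA-TENM3 (chr4:177642438-181247612) held 40 overexpression and 26 control summits, and TRIML1-FRG1 (chr4:188350768-189740871) held 37 overexpression and 26 control summits. FAT1-ZFP42, beside a giant cadherin gene, held 20 overexpression and 14 control summits, and AADAT-GALNTL6 held 14 overexpression and 8 control summits.

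The contrast was larger in the control density than in the overexpression density. The overexpression density was 14.54 per Mb in the 8 deserts and 17.71 in the 60. The control density was 9.86 per Mb in the 8 deserts and 32.05 in the 60. The summits outside deserts in the same stretch gave a like picture, with 385 in the overexpression and 285 in the control library, a ratio of 1.35, where the rest of chromosome 4 had 0.603. Of the overexpression desert intervals in the stretch, 37.6% overlapped a control interval, against 82.0% in the other deserts of the chromosome. The median pileup in the stretch was 10 reads in the overexpression and 9 in the control library. The 19 paired summits there had a mean log2 ratio of 0.11 ± 0.35 (SD over pairs), against 0.13 ± 0.42 (SD over pairs) over 386 pairs in the other deserts. Pileups are known only at called summits, and pairs only where both libraries had one. These values therefore cannot show the control signal at places where the control list has no summit. The DNA copy number of either culture was not measured in these data, and its part in the result was not tested.

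**Figure D4:**
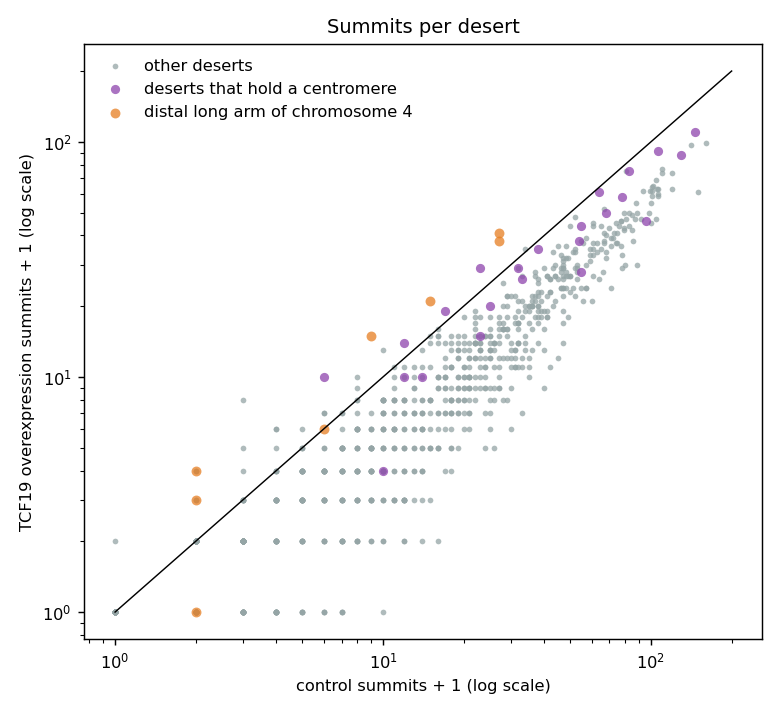
Overexpression summits against control summits in each of the 867 deserts, both plus 1 on log scales; the line marks equal counts. Deserts that hold a centromere and the 8 deserts of the distal long arm of chromosome 4 are coloured; 6 of these 8 lie above the line.

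**Figure D5:**
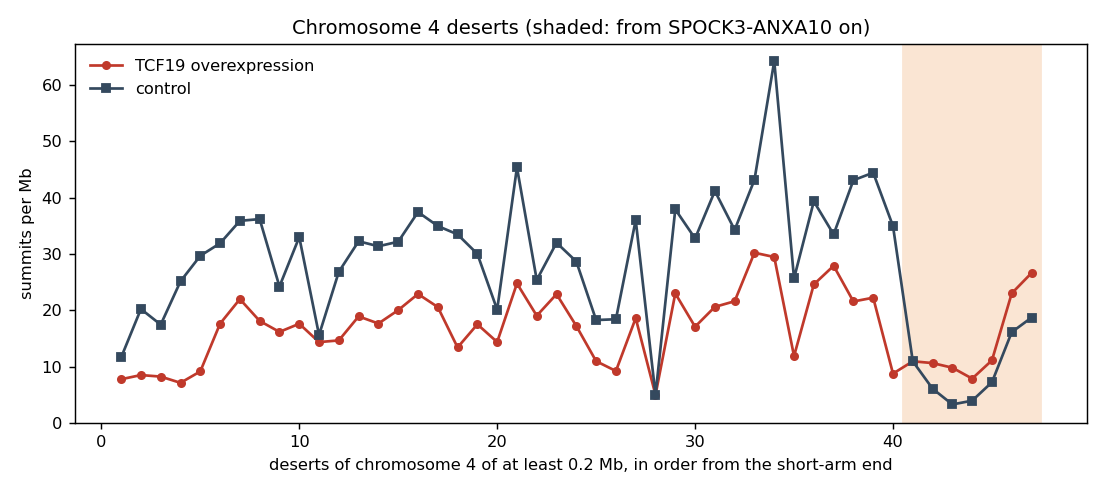
Summits per Mb in the deserts of chromosome 4 of at least 0.2 Mb, in their order from the short-arm end, for the overexpression and control libraries. From SPOCK3-ANXA10 on (shaded) the control density falls to or below the overexpression density, as in AGA-TENM3 with 11.1 overexpression and 7.21 control summits per Mb.

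Desert intervals were less often clustered in the overexpression list. Another interval of the same list lay within 10 kb, edge to edge, of 37.25% of the overexpression desert intervals (36.31 to 38.2) and of 53.65% of the control ones (52.93 to 54.37), a ratio of 0.69 (0.67 to 0.71). The median distance to the nearest neighbour was 16 kb in the overexpression and 9 kb in the control list. A longer list has closer neighbours: with the control desert intervals limited to the 10005 of highest fold, 34.15% were clustered (33.23 to 35.09), below the overexpression share. The direction of the difference therefore changed when the desert lists were made equal in length.

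Runs of at least 5 intervals, each within 10 kb of the next, numbered 62 in the overexpression and 226 in the control list. Of these, 15 of the overexpression and 30 of the control runs were in centromere deserts. The control list is longer, and runs were not counted with equal numbers of desert intervals. The longest overexpression run outside centromere deserts, chr5:2240600-2301550 beside IRX2, an Iroquois homeobox gene, held 15 intervals, of which 8 overlapped a control interval. The longest control run there, chr11:134632257-134714587 between B3GAT1 and the end of chromosome 11, held 18, of which 10 overlapped an overexpression interval. Clustered intervals were more often at noncoding ends than single ones in both lists, at 11.4% against 6.87% in the overexpression list and 7.53% against 4.81% in the control list.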

How the data were processed

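ChIP-seq peaks of 1 TCF19 overexpression and 1 control library of Ishikawa cells were analysed, with groups taken from the genotype label. Per the submitters' processing notes, the tools were BWA 0.7.12 and MACS2 2.1.0 and the build was hg38. Their parameters, duplicate handling and any input: not given in the sources used here. The peak lists are separate, 1 per library.

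Per summit, the authors deposited a score, a fold enrichment (a ratio of pileup to local background), a summit offset, and p-values and q-values as −log10. The deposited −log10 q-values begin at 1.30 in both lists. The fold is the authors' value and serves here only to rank, filter or describe peaks of its own list. Total reads per library are not given in the files; the lists hold 112212 overexpression and 170334 control summits, of which 0.573% and 0.465% lie on other contigs and were left out.

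Summit pileups in whole reads were solved from the deposited fold, taken as (pileup + 1) / (background + 1), and from a Poisson tail, allowing −log10 p to differ by up to 0.001. This succeeded at 99.996% of overexpression and 99.997% of control summits. Distances were taken to 19821 coding genes of RefSeq GRCh38.p14; 153 others that the table lists on unplaced scaffolds, alternate loci or patches were left out. Deserts were marked as holding a centromere from textbook positions. Intervals count as overlapping from 1 bp. Shares have Wilson intervals, ratios of shares log-scale intervals, and read counts exact Poisson intervals, all at 95%.

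Deserts are named by a rule: the 10 with most summits, the longest, and, from 50 summits up, those with the 10 highest and 10 lowest overexpression shares; intervals and noncoding genes by the 10 highest folds in each class. The text gives some of each. The members and lists were chosen with earlier results of these data known. The procedures were tested on simulated data. Python 3.11.15, numpy 2.4.6, pandas 2.3.3 and scipy 1.17.1 were used. No differential test was run, since each condition has 1 library. Alternatives are given in the closing section.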

Additional observations from a re-analysis of the deposited data

How the results depend on the processing

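The 6 results were recomputed under 10 alternatives planned with the design and 4 chosen after seeing the data (centromere deserts left out, unplaced genes kept, the distal long arm of chromosome 4 left out, equal numbers of desert intervals), each where it applies. Of 61 values, 39 stayed within the counting interval of the value reported, 21 moved outside it and 1 reversed: the clustering ratio was 1.09 with equal numbers of desert intervals.

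The desert share ratio was 0.87 with deserts from 500 kb, 0.70 with the control list cut to the length of the overexpression list, 0.87 at low local background and 0.80 without centromere deserts. The overexpression overlap was 74.32% at a −log10 q of at least 2, 66.13% with equal list length and 75.45% when at least 0.5 of the shorter interval had to overlap. The control overlap was 44.33% with deserts from 500 kb, 40.45% at the stricter q-value and 45.63% with equal list length. It was 41.11% at low local background, 41.11% without centromere deserts, 40.58% with the stricter overlap and 52.37% with equal numbers of desert intervals. The value of 44.33% is above the 43.0% of the whole control list as deposited, which the value reported is below. The values of 45.63% and 52.37% come from control lists cut to their highest folds. They have no like value for the whole list, so they are not set against the 43.0%. The overexpression overlap of 66.13% likewise has no like value outside deserts, so it does not show whether deserts stand above the rest at equal list length. The paired log2 ratio was 0.13 with deserts from 500 kb and 0.03 with equal list length. The noncoding end ratio was 1.18 within 5000 bp. The clustering ratio was 0.84 with equal list length, 0.66 at low local background, 0.67 without centromere deserts and 0.87 with a gap of 50 kb. The cause of each move was not tested.

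No paired analysis was possible because each condition has 1 library and the results come from no test. Total reads are not given, so depth is known only through the genome-average background.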
